A study of Mus musculus with 19 samples.

Results

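The 8 genes described here encode adhesion proteins that are used to tell epithelial cells from mesenchymal cells, together with the catenins that bind them inside the cell. They are the cadherins Cdh1, Cdh2, Cdh3 and Cdh11, the surface proteins Epcam and Cd24a, and the catenins Ctnnb1 and Ctnnd1. They were taken by name, with earlier results of these data known, and all 8 were found among the 23284 genes in the table of mouse transcripts. Classical cadherins hold neighbouring cells together by binding the same cadherin on the next cell in the presence of calcium. Their tails bind p120 catenin (Ctnnd1), which keeps the cadherin at the membrane, and beta-catenin (Ctnnb1), which links it to the actin cytoskeleton and also acts as a transcriptional co-activator of Wnt signalling. E-cadherin (Cdh1) is typical of epithelia, including the luminal and basal layers of the prostate, whereas N-cadherin (Cdh2) and cadherin-11 (Cdh11) are typical of fibroblasts and other mesenchymal cells.

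The study asked whether fibroblasts can be converted into prostate tissue, and RNA-seq was performed on whole tissue or cell pellets of 19 samples. The 6 MEF samples were cultured mouse embryonic fibroblasts from E13.5 embryos on C57BL/6, labelled Nkx3-1tm2(LacZ)Mms /+, a reporter allele. The 6 prostate samples were whole wild-type C57BL/6 prostates from mice at 6 weeks. The 7 renal grafts were grown for 6 weeks under the kidney capsule of nude mice from induced epithelial cells (iEpt) mixed with rat urogenital mesenchyme, the embryonic stroma that instructs prostate development. The iEpt cells were fibroblasts that had received the human OSKM reprogramming factors (Oct4, Sox2, Klf4 and c-Myc) by retrovirus and were then kept in a basal epithelial medium. The study sequenced 5 iEpt+NAF grafts and 2 iEpt only grafts. In 5 grafts, numbered FS002, FS003, FS005, FS007 and also FS008, these cells also carried the prostate regulators Nkx3.1, androgen receptor and FoxA1, and are called iEpt+NAF. Grafts FS022 and FS023, which by elimination would be the iEpt only grafts of cells without these regulators, are in a second table that was normalized separately. The sample labels do not tell the kinds of graft apart, so that their values are given singly and enter no test. According to the methods, MEF cultures came from the limbs of pooled male and female littermates and were depleted of blood, endothelial and EpCAM-positive cells by sorting. Whether the sequenced MEF pellets had been sorted is not stated, so a low Epcam level in MEFs and the sort cannot be told apart. A graft holds mouse iEpt-derived cells, rat stroma and adjoining host tissue, and how rat reads were treated is not given in the sources used here.

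Each value is a deposited log2 level after DESeq normalization, and an increase of 1 is a doubling for all but the lowest values. The reads counted on genes numbered 16767287 to 26152339 in the 17 samples of the first table, and 6629663 and 9662056 in FS022 and FS023. The level that 3 reads give, used as a floor for counting error only, ran from 1.68 to 2.34 over the 17 samples and was 3.12 (FS022) and 2.70 (FS023). Of the 152 values of the 8 genes, 150 lay above this floor. The tissue labels were checked against marker genes. The summed level of 8 fibroblast markers was 19 to 19.38 in MEFs against 14.14 to 15.63 in prostate, and that of 3 prostate secretion genes (Pbsn, Sbp and Spink3) was 20.02 to 21.13 in prostate. In the 5 iEpt+NAF grafts the secretion genes were at 9.16 to 12.1, a range that overlaps that of MEF samples FS015 to FS018, which were at 9.83 to 11.6, while FS019 and FS020 were at 2.52 and 1.36. The 6 MEF samples fell into 3 close pairs (FS015 with FS020, FS016 with FS019 and FS017 with FS018), whose members differed by more than counting noise. They were kept as 6 samples, and the calls on the 8 genes against MEFs were also made with each pair averaged.

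Cdh1, Cdh3 and Cdh11 lie on mouse chromosome 8 in mm9 (GENCODE M1 annotation). Cdh3 spans chr8:109034791-109080808 and Cdh1 follows it on the same plus strand at chr8:109127251-109194146. Cdh11 is on the minus strand at chr8:105156895-105309011. Epcam is at chr17:88035319-88050446 on the plus strand, Cd24a at chr10:43298975-43304068 on the plus strand, Ctnnb1 at chr9:120838334-120869625 on the plus strand and Ctnnd1 at chr2:84440228-84490922 on the minus strand.

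Snai and Zeb repressors bind E-boxes, short DNA motifs found in the promoters of Cdh1 and other epithelial genes. RefSeq promoter sequences (GRCm38.p6) were matched for 3 of the 8 genes (Epcam, Ctnnb1 and Ctnnd1), and the 250 bases before each start were searched for the E-box letters CACCTG on either strand. Epcam had 2 matches, and no match was found in the windows of Ctnnb1 or Ctnnd1, each of which has 2 listed starts. Of 32851 promoters, 17.2% held at least 1 match and 2.06% held 2 or more. The stretches around the Epcam matches are shown because Epcam had the largest difference between prostate and MEFs of the 8 genes. They lie at chr17:87635782-87635807 and chr17:87635950-87635975 on the plus strand, and the capitals mark the E-box, which begins 187 and 19 bases before the start. A match to these letters is a description of the sequence and does not show binding.
Epcam distal E-box: cagtagggccCACCTGctggaggacc
Epcam proximal E-box: ccataaaaccCAGGTGtggaggagaa

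E-cadherin transcript was very low in MEFs (an estimated 4 to 30 reads) and abundant in every prostate and graft sample. Cdh1 had values of 2.32 to 4.59 in the 6 MEF samples (median 3.29) and of 12.76 to 13.17 in prostate (median 12.97). The iEpt+NAF grafts were at 13.07 in FS002, 13.58 in FS003, 12.86 in FS005, 13.92 in FS007 and 13.03 in FS008. No MEF sample came within 8 log2 units of any prostate or graft sample, whereas the prostate and graft ranges overlapped. The log2 fold change was 9.71 (SE 0.30, adjusted p = 2.35e-11 from limma) for prostate over MEFs and 10.04 (SE 0.37, adjusted p = 1.45e-08) for grafts over MEFs. These comparisons share the same MEF samples. Prostate over grafts gave a log2 fold change of -0.33 (95% interval -0.73 to 0.07, adjusted p = 0.146), so that no difference was detectable.

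**Figure D1:**
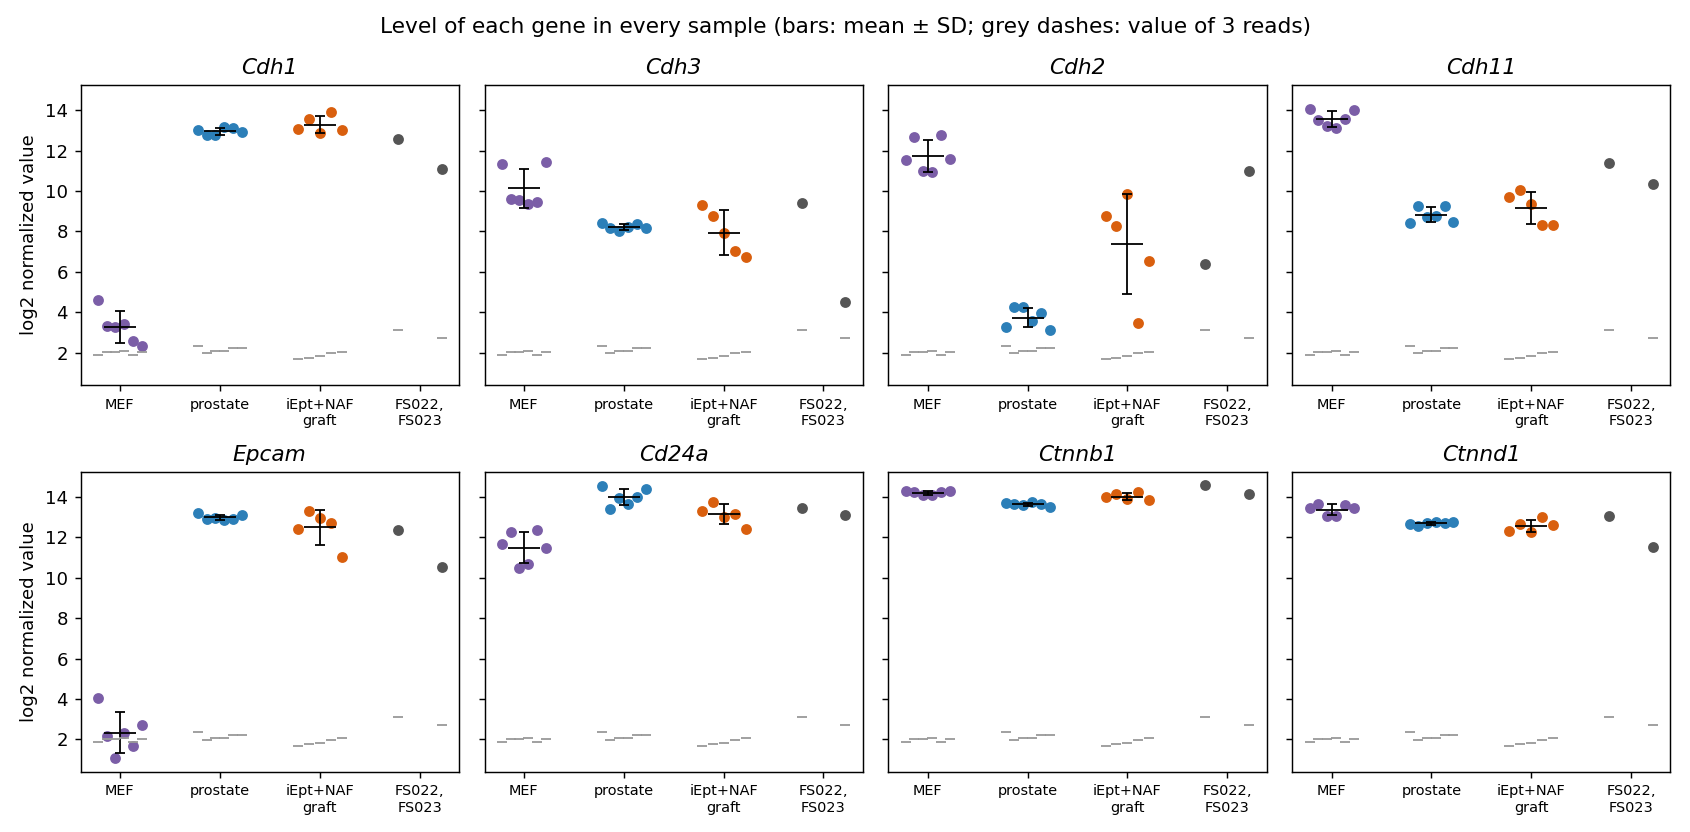
Level of each of the 8 genes in every sample on the deposited log2 scale. Points are samples, black bars the mean ± SD of the group (6 MEF, 6 prostate and 5 iEpt+NAF graft samples; none for FS022 and FS023), and grey dashes the value of 3 reads in each sample. Cdh1 and Epcam sit near that value in MEFs and above 11 in prostate and the iEpt+NAF grafts, while Cdh2 is spread from 3.49 to 9.83 over the grafts.

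Epcam, a homophilic adhesion protein of simple epithelia that is widely used to sort epithelial cells, was also far lower in MEFs than in prostate or grafts. It was at 1.07 to 4.06 in MEFs (median 2.22), with 2 of the 6 samples below the value of 3 reads, and at 12.84 to 13.20 in prostate (median 12.93). Among the grafts it was at 12.40 in FS002, 13.32 in FS003, 12.97 in FS005, 12.71 in FS007 and 11.03 in FS008. FS002, FS007 and FS008 lay below every prostate sample, FS008 by the most, FS005 lay within the prostate range and FS003 above it. Epcam was higher than in MEFs by 10.66 in prostate (SE 0.38, adjusted p = 5.63e-11 from limma) and by 10.16 in grafts (SE 0.53, adjusted p = 1.07e-07) on the log2 scale. The difference of prostate over grafts was 0.50 (95% interval -0.22 to 1.21, adjusted p = 0.211). FS008 also had the lowest level of the basal keratin gene Krt5, 5.13 against 11.67 or more in the other iEpt+NAF grafts, and a summed level of kidney tubule markers of 17.3. The part of these markers in the Epcam value was not tested.

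The low Cdh1 and Epcam values of the MEF samples were set beside transcripts of the prostate. MEF sample FS015 had the highest Cdh1 (4.59) and the highest Epcam (4.06) of the 6, and its prostate secretion genes were at a median of 0.18% of their mean prostate level. At that same share of the prostate level, Cdh1 would be at 3.93 and Epcam at 3.95. In FS016, FS017 and FS018 the secretion genes were at 0.0540%, 0.0704% and 0.0544%, and Cdh1 was at 3.33, 3.26 and 3.41 against 2.36, 2.69 and 2.37 at that share. Epcam was at 2.15, 1.07 and 2.30 in the same samples, against 2.38, 2.71 and 2.39 at that share. Cdh1 lay above its value at that share in all 4 samples, and Epcam above it in FS015 and below it in the other 3. In FS016 to FS018 Cdh1 had only an estimated 9 to 10 reads and Epcam 1 to 4, so that small differences from that share cannot be read. The part of prostate transcripts in the MEF values was not tested. FS019 and FS020 had next to none of the secretion genes, with Cdh1 at 2.57 and 2.32 and Epcam at 1.69 and 2.68. With FS019 and FS020 as the MEF samples, the log2 fold change of prostate over MEFs was 10.51 for Cdh1 and 10.80 for Epcam, against 9.71 and 10.66 over all 6.

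Cd24a encodes a small glycosylated surface protein that is carried by many epithelial cells and also by immune and neural cells. Unlike Cdh1 and Epcam it was readily measured in MEFs, at 10.50 to 12.34 (median 11.57). Prostate was at 13.42 to 14.53 (median 13.98). In the grafts it was at 13.33 in FS002, 13.77 in FS003, 12.99 in FS005, 13.17 in FS007 and 12.42 in FS008. Every graft was above every MEF sample, but FS008 exceeded the highest MEF sample by only 0.08. The log2 fold change was 2.50 (SE 0.32, adjusted p = 8.62e-06 from limma) for prostate over MEFs and 1.64 (SE 0.36, adjusted p = 0.0021) for grafts over MEFs. Between prostate and grafts it was 0.86 (95% interval 0.30 to 1.41, adjusted p = 0.0133), too small to count as passed, which took a size of at least 1. When FS003, the graft with the most Cd24a, was left out it was 1.01 (adjusted p = 0.00535) and passed. By an exact two-sided permutation test p was 0.013.

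N-cadherin transcript fell from MEFs to prostate by more than any other of the 8 genes, and the grafts differed widely among themselves. Cdh2 was at 10.94 to 12.77 in MEFs (median 11.55) and at 3.11 to 4.27 in prostate (median 3.75), an estimated 7 to 21 reads. The grafts were at 8.78 in FS002, 8.27 in FS003, 9.83 in FS005, 3.49 in FS007 and 6.54 in FS008. All 5 grafts were below all MEF samples, 4 of them were above all prostate samples, and FS007 lay within the prostate range. The log2 fold change was -8.01 (SE 0.35, adjusted p = 2.79e-10 from limma) for prostate over MEFs and -4.36 (SE 0.95, adjusted p = 0.00197) for grafts over MEFs. Prostate over grafts gave -3.65 (95% interval -5.68 to -1.62, adjusted p = 0.006), and the exact two-sided permutation test gave p = 0.0108. Cdh2 was the only gene of the 8 to pass in that comparison.

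The iEpt+NAF grafts also differed in markers of other tissues. The summed level of 5 neural markers (Tubb3, Elavl3, Elavl4, Syp and Snap25) was 11.45 in FS002, 11.33 in FS003 and 12.03 in FS005, the grafts with the most Cdh2, and 7.32 in FS007 and 6.42 in FS008. Prostate was at 5.06 to 7.14 and MEFs, through Tubb3, at 7.67 to 10.25. All 5 of these markers were above the value of 3 reads in 4 of the 5 grafts, and 4 were in FS008. The summed kidney tubule markers were at 16.4 in FS002, 10.7 in FS003, 17.4 in FS005, 12.8 in FS007 and 17.3 in FS008, against 9.05 to 9.90 in prostate. All 10 kidney tubule markers were above the value of 3 reads in every graft. Skeletal muscle markers were at 16.0, 15.2, 15.4, 12.1 and 10.2 in the same order of grafts, against 12.4 to 13.3 in prostate and 8.29 to 10.4 in MEFs. Acta1 made up most of the sum in FS007 (12.07) and FS008 (10.09), where Ckm, Mylpf and Tnnt3 were at 2.99 to 5.61. Prostate had Acta1 at 12.33 to 13.20. N-cadherin is known in neurons, muscle and kidney proximal tubule, and the part of these tissues in the Cdh2 values was not tested. In whole tissue, fewer cells of a type and less RNA per cell cannot be told apart.

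**Figure D2:**
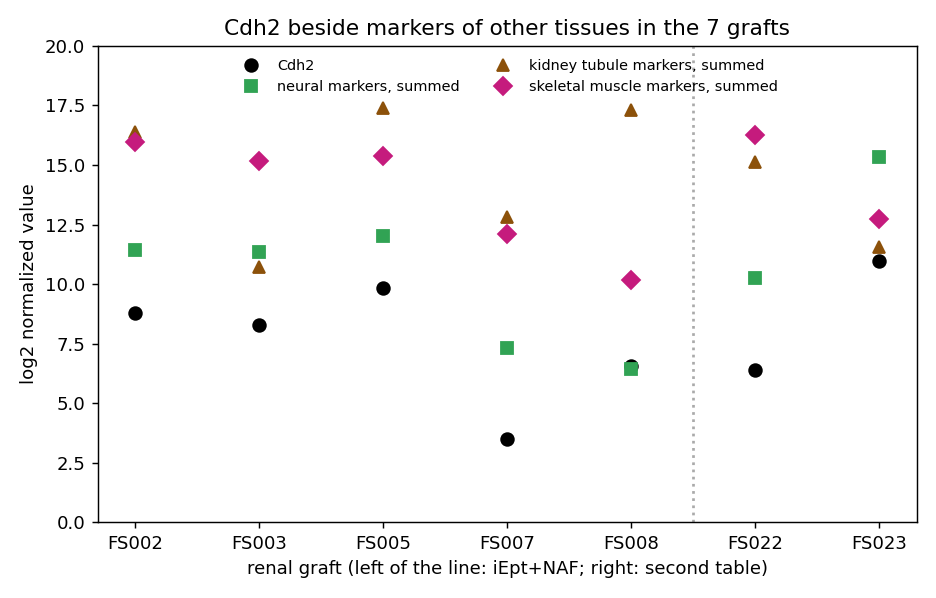
Cdh2 (black circles) beside the summed levels of neural (squares), kidney tubule (triangles) and skeletal muscle (diamonds) markers in each of the 7 renal grafts, on the log2 scale. FS007 and FS008 are low in Cdh2, neural and muscle markers, FS022, from the separately normalized table, has Cdh2 at 6.38 with neural markers at 10.26 and the highest muscle level of the 7 grafts (16.26), and FS023 has the highest Cdh2 (10.97) and the highest neural level (15.3).

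Cadherin-11 marks mesenchymal cells such as fibroblasts and osteoblasts. Cdh11 was at 13.12 to 14.07 in MEFs (median 13.53) and at 8.43 to 9.27 in prostate (median 8.74). Among the grafts it was at 9.71 in FS002, 10.04 in FS003, 9.34 in FS005, 8.32 in FS007 and 8.31 in FS008. MEFs were above all prostate and iEpt+NAF graft samples by more than 3 log2 units, and the range of these grafts enclosed that of prostate. The log2 fold change was -4.76 (SE 0.20, adjusted p = 2.21e-10 from limma) for prostate over MEFs and -4.44 (SE 0.33, adjusted p = 1.05e-06) for grafts over MEFs. Prostate over grafts gave -0.33 (95% interval -1.05 to 0.39, adjusted p = 0.416). The 8 fibroblast markers ran from 13.9 in FS008 to 16.5 in FS003, the same grafts that had the least and the most Cdh11.

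P-cadherin (Cdh3) is found in the basal layer of stratified and glandular epithelia. It did not follow Cdh1 in these samples. Cdh3 was at 9.38 to 11.43 in MEFs (median 9.58) and at 8.03 to 8.42 in prostate (median 8.17). Among MEF samples FS015 and FS020 stood apart at 11.36 and 11.43, and the other 4 were at 9.38 to 9.58. In the grafts it was at 9.32 in FS002, 8.75 in FS003, 7.91 in FS005, 7.01 in FS007 and 6.71 in FS008, all below the MEF range but by no more than 0.06 in FS002. Cdh3 was lower than in MEFs by a log2 fold change of -1.91 in prostate (SE 0.37, adjusted p = 0.000314 from limma) and of -2.19 in grafts (SE 0.57, adjusted p = 0.00559). The same pair FS015 and FS020 had summed blood markers at 11.63 and 11.46 against 5.93 to 6.94 in the other MEF samples, and their part in the Cdh3 values was not tested. Prostate over grafts gave a log2 fold change of 0.28 (95% interval -0.62 to 1.18, adjusted p = 0.58), and without FS008 it was -0.027.

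The catenins varied least. Ctnnb1 was at 14.09 to 14.30 in MEFs (median 14.23) and at 13.52 to 13.74 in prostate (median 13.64). The grafts were at 13.99 in FS002, 14.14 in FS003, 13.90 in FS005, 14.25 in FS007 and 13.83 in FS008, between the prostate range and the top of the MEF range. The log2 fold change was -0.57 (SE 0.06, adjusted p = 2.07e-06 from limma) for prostate over MEFs and -0.38 (95% interval -0.60 to -0.16, adjusted p = 0.00779) for prostate over grafts, both with no overlap between samples and both under the minimum size of 1. For grafts over MEFs it was -0.19 (95% interval -0.42 to 0.05, adjusted p = 0.139), and 0.76 after quantile normalization, so that no direction is given.

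Ctnnd1 was at 13.03 to 13.63 in MEFs (median 13.44) and at 12.54 to 12.77 in prostate (median 12.71). Among the grafts it was at 12.29 in FS002, 12.64 in FS003, 12.25 in FS005, 13.03 in FS007 and 12.59 in FS008. FS007 came within 0.004 of the lowest MEF sample. The log2 fold change was -0.68 (SE 0.11, adjusted p = 7.09e-05 from limma) for prostate over MEFs and -0.81 (SE 0.17, adjusted p = 0.00147) for grafts over MEFs, again under the minimum size of 1. Prostate over grafts gave 0.13 (95% interval -0.16 to 0.42, adjusted p = 0.421).

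The calls over the 8 genes are read against those over all genes tested. For prostate over MEFs, Cdh1, Epcam and Cd24a were higher and Cdh2, Cdh3 and Cdh11 lower, while 27.8% of 14560 genes were called higher and 20.5% lower. For grafts over MEFs the same 3 genes were higher and the same 3 lower, with 29.9% of 16121 genes called higher and 12.0% lower. For prostate over grafts 1 of the 8 genes was called, Cdh2, with 10.3% of 16353 genes called higher and 23.0% lower. The median log2 fold change over all genes tested was 0.17, 0.26 and -0.11 in the 3 comparisons. After quantile normalization the split of higher to lower genes was 3315 to 3585 in place of 4044 to 2982 for prostate over MEFs, 2830 to 3827 in place of 4815 to 1942 for grafts over MEFs, and 3112 to 2445 in place of 1683 to 3757 for prostate over grafts. The calls on the 8 genes were 6, 6 and 1 with either scaling. Cdh1 and Epcam passed the filter on low values through the prostate and graft samples. By the exact two-sided permutation test, 8 of 8 genes for prostate over MEFs and 6 of 8 for grafts over MEFs reached p = 0.00216, the smallest that 6 samples against 6 or 5 allow here, Cd24a (p = 0.00649) and Ctnnb1 (p = 0.0584) being those that did not for grafts over MEFs.

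**Figure D3:**
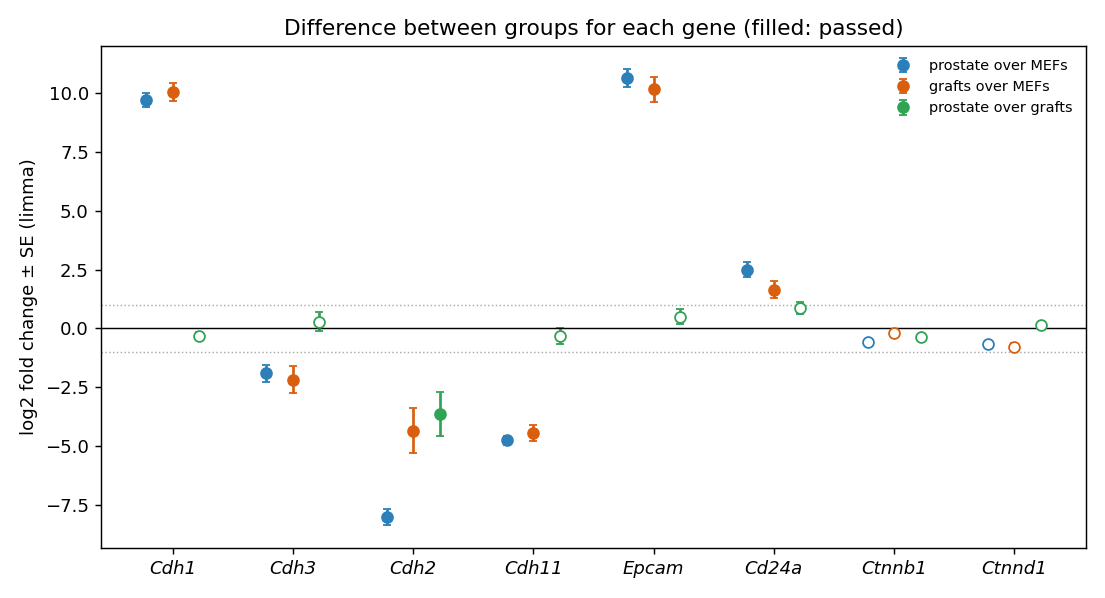
Log2 fold change ± SE (limma) of each gene for prostate over MEFs, grafts over MEFs and prostate over grafts. Filled points passed (adjusted p under 0.05 and at least 1 in size, the dotted lines); Cdh2 is the only filled point for prostate over grafts, at -3.65.

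The balance of E-cadherin to N-cadherin is often used to place cells between epithelial and mesenchymal states. Cdh1 minus Cdh2 on the log2 scale was -8.49 ± 1.28 (SD, n = 6) in MEFs, 5.91 ± 2.83 (SD, n = 5) in grafts and 9.23 ± 0.59 (SD, n = 6) in prostate. By sample the grafts were at 4.28 in FS002, 5.31 in FS003, 3.03 in FS005, 10.43 in FS007 and 6.48 in FS008. FS007 was above the highest prostate sample (9.81) and the other 4 grafts were below the lowest (8.49). This spread came from Cdh2, which had an SD of 2.48 over the grafts, more than from Cdh1, with 0.44. Cdh1 minus Cdh11 was 4.14 in prostate (SD 0.42, n = 6) and 4.14 in grafts (SD 0.98, n = 5). The difference between the catenins, Ctnnb1 minus Ctnnd1, was 0.95 ± 0.12 (SD, n = 6) in prostate, 1.46 ± 0.22 (SD, n = 5) in grafts and 0.84 ± 0.20 (SD, n = 6) in MEFs.

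**Figure D4:**
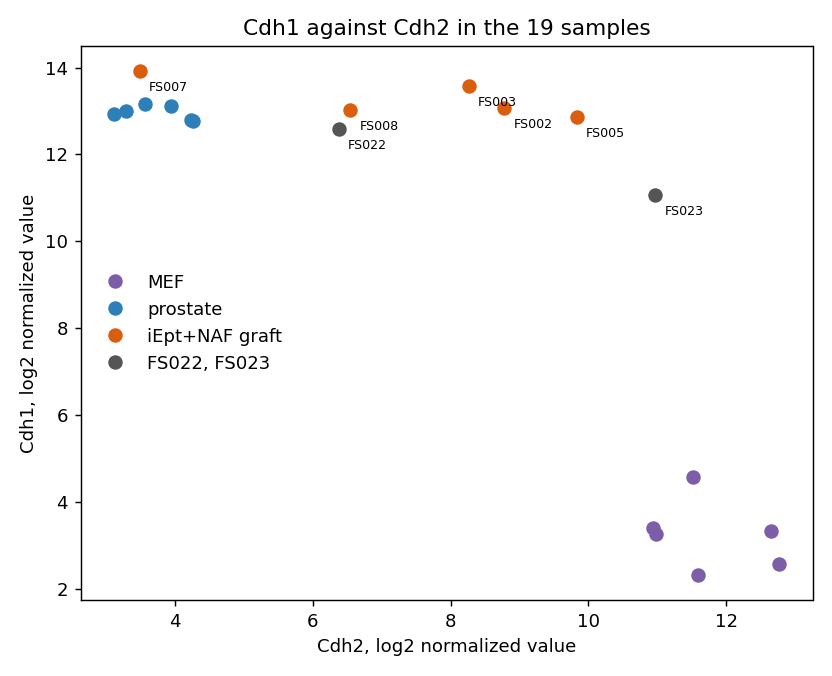
Cdh1 against Cdh2 in the 19 samples on the deposited log2 scale, with the renal grafts named. The 6 MEF samples lie at high Cdh2 and low Cdh1, prostate at the opposite corner, and the grafts along the top at Cdh2 values of 3.49 to 10.97.

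The kidney tubule also makes E-cadherin and EpCAM, so both genes are given here beside the kidney markers. FS003 had the least kidney tubule signal (10.7) of the 5 iEpt+NAF grafts, with Cdh1 at 13.58 and Epcam at 13.32, each above the highest prostate sample. FS005 had the most (17.4), with Cdh1 at 12.86 and Epcam at 12.97. Between them, FS007 (12.8) had Cdh1 at 13.92 and Epcam at 12.71, and FS002 (16.4) had them at 13.07 and 12.40. In FS008 (17.3) they were at 13.03 and 11.03. The part of kidney tubule in the Cdh1 and Epcam values was not tested. Cdh16, the kidney-specific cadherin, was at 11.30 in FS002, 6.17 in FS003, 11.42 in FS005, 7.12 in FS007 and 12.33 in FS008.

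The 2 grafts of the second table are given side by side. FS022 had Cdh1 at 12.59, Epcam at 12.38, Cd24a at 13.48, Cdh3 at 9.42, Cdh2 at 6.38, Cdh11 at 11.38, Ctnnb1 at 14.57 and Ctnnd1 at 13.08. FS023 had Cdh1 at 11.07, Epcam at 10.51, Cd24a at 13.10, Cdh3 at 4.49, Cdh2 at 10.97, Cdh11 at 10.35, Ctnnb1 at 14.14 and Ctnnd1 at 11.51. On the deposited scales FS023 thus had the least Cdh1, Epcam and Cdh3 and the most Cdh2 of the 7 grafts. Its neural markers summed to 15.3 and its epithelial keratins to 13.1, against 10.3 and 15.1 in FS022, and their part in its values was not tested. Set against its average across samples, the median gene lay at -0.10 in FS022 and -0.12 in FS023 on the log2 scale. Of the first-table grafts, FS002, FS003 and FS005 were at -0.08, FS007 at 0.009 and FS008 at -0.002. These offsets do not measure the gap between the tables.

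Levels can be compared between genes only per length, and were divided by the exon length of each gene. In prostate the order per kb of exon was Cd24a (13.13 ± 0.41, SD, n = 6), Epcam (11.96 ± 0.14), Ctnnb1 (11.29 ± 0.08), Cdh1 (10.77 ± 0.17), Ctnnd1 (9.82 ± 0.08), Cdh11 (6.74 ± 0.37), Cdh3 (6.22 ± 0.15) and Cdh2 (0.72 ± 0.49) on the log2 scale. The sample ranges of neighbours in this order overlapped only for Cdh11 and Cdh3. In the grafts Cd24a was also first (12.28 ± 0.49, SD, n = 5), but its range overlapped that of Ctnnb1 (11.67 ± 0.17), as did the ranges of Ctnnb1 with Epcam (11.46 ± 0.88) and of Epcam with Cdh1 (11.10 ± 0.44). In MEFs Ctnnb1 (11.86 ± 0.09, SD, n = 6) and Cdh11 (11.505 ± 0.40) came first with overlapping ranges, and Epcam (1.30 ± 1.01) and Cdh1 (1.05 ± 0.79) last.

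**Figure D5:**
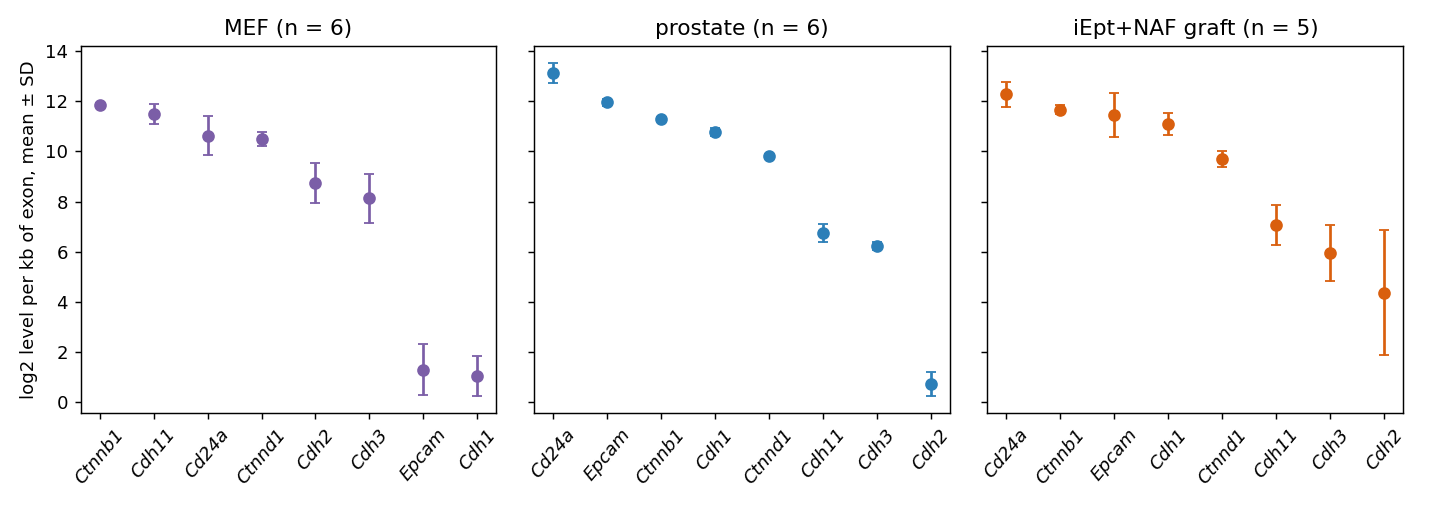
Level per kb of exon for the 8 genes, ordered within each group, as the log2 mean ± SD over samples. Cd24a comes first in prostate and grafts, Ctnnb1 in MEFs, Epcam and Cdh1 lie together at the bottom in MEFs, and Cdh2 is lowest on average in prostate and grafts.

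Transcripts with the pattern most like each gene were sought over the 17 samples and 16100 genes, by the root mean square difference between centred log2 values. For Cdh1 these were Cldn7 (0.576), a claudin of epithelial junctions, Grhl2 (0.582), an epithelial transcription factor, Slc44a4 (0.615), Rab25 (0.619) and Prss8 (0.715). Cldn7 was at 10.88 ± 0.12 (SD, n = 6) in prostate, 11.30 ± 0.57 (SD, n = 5) in grafts and 1.69 ± 0.84 (SD, n = 6) in MEFs. For Epcam they were Slc44a4 (0.751), Cdh1 (0.754), Krt8 (0.907), Ap1m2 (0.930) and Grhl2 (0.934). For Cdh11 they were Fkbp10 (0.299), a chaperone of collagen, Mrc2 (0.329), a collagen receptor, Myh10 (0.334), Adam19 (0.352) and Lgals1 (0.359). For Cd24a they were B3galt4 (0.355), Rdm1 (0.394), Rassf3 (0.400), Lpcat2 (0.404) and 1810049H13Rik (0.416). These are descriptions over samples that share 3 groups.

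Of 16 other epithelial surface and tight junction genes, 14 were called higher for prostate over MEFs and 15 for grafts over MEFs, and none was lower in either. Their median log2 fold changes were 7.51 and 7.10, against 0.17 and 0.26 over all genes tested. In these comparisons 27.8% and 29.9% of all genes tested were called higher, and 20.5% and 12.0% lower. Cldn8, a claudin, was higher in prostate than in MEFs by 10.60 (SE 0.70, adjusted p = 1.19e-08 from limma). Between prostate and grafts 2 of these 16 genes were higher in prostate, 3 were lower and 11 did not pass. Over all genes tested 10.3% were called higher and 23.0% lower, so both shares were near the background. The mucin gene Muc1 was lower in prostate (4.36 ± 0.41 against 9.21 ± 2.51, adjusted p = 0.00105), and Cldn8 was higher (12.495 ± 0.37 against 8.51 ± 1.51, adjusted p = 0.000136).

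Desmosomes are the second kind of cell junction built from cadherins. Of all 14 desmosomal genes, taken without the filter on low values, 8 were higher and none lower for prostate over MEFs, and 12 were higher and none lower for grafts over MEFs, beside the 27.8% and 29.9% of filtered genes called higher. With the filter, which several of these genes pass only through prostate or grafts, the counts were 7 of 9 and 11 of 12, and the latter was 9 of 13 with MEF pairs averaged and 8 of 9 after quantile normalization. Dsg2, the desmoglein of simple epithelia, was at 10.46 ± 0.09 (SD, n = 6) in prostate, 10.77 ± 0.41 (SD, n = 5) in grafts and 3.07 ± 1.58 (SD, n = 6) in MEFs. In prostate against grafts 6 of 12 were lower and 1, Dsc1, was higher by 4.57 (SE 1.26, adjusted p = 0.0093 from limma). Over all genes tested 23.0% were called lower and 10.3% higher. Without the filter 6 of all 14 desmosomal genes were lower and 2 higher. After quantile normalization 4 of 11 were lower and 2 higher, and without FS003 4 of 10 were lower and 1 higher. Dsg3, a desmoglein of stratified epithelia such as skin, was at 0.87 in prostate (SD 1.13, n = 6) and at 9.66 in grafts (SD 1.51, n = 5), whose samples did not overlap (adjusted p = 3.7e-06). Dsg1b was also lower in prostate, by a log2 fold change of -4.74 (SE 1.03, adjusted p = 0.00242). Its prostate mean was -0.76, so that Dsg3 and Dsg1b both passed the filter on low values through the grafts.

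Of 15 adherens junction partners in the table, 14 passed the filter, and they did not share a direction. For prostate over MEFs 5 were higher and 4 lower, for grafts over MEFs 6 were higher and 1 lower, and for prostate over grafts none was higher and 4 were lower. Over all genes tested 27.8% and 20.5%, 29.9% and 12.0%, and 10.3% and 23.0% were called higher and lower in these comparisons, so the shares for prostate over MEFs and the lower shares of the other comparisons were near the background. Pvrl4, a nectin, was higher than in MEFs by 6.98 in prostate (SE 0.23, adjusted p = 3.77e-11 from limma) and by 7.23 in grafts (SE 0.42, adjusted p = 2e-07). Vcl, which encodes the actin linker vinculin, was lower in grafts than in MEFs, at 11.49 ± 0.35 (SD, n = 5) against 15.01 ± 0.20 (SD, n = 6). The neural catenins Ctnna2 and Ctnnd2 were the partners with the lowest prostate to graft ratio, with log2 fold changes of -5.11 (SE 1.26, adjusted p = 0.00495) and -2.77 (SE 0.63, adjusted p = 0.00308). Ctnna2 was at 8.15 in FS002, 7.93 in FS003 and 8.68 in FS005, the grafts with neural markers at 11.33 to 12.03, and at 2.39 in FS007 and 2.78 in FS008, with neural markers at 7.32 and 6.42. Ctnnd2 was at 8.05 to 8.88 in 4 grafts and at 4.85 in FS008, and the part of neural tissue in both was not tested.

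Among 18 other cadherins the counts differed by comparison. For prostate over MEFs 3 of 9 tested were higher and 5 lower, and for grafts over MEFs 4 of 15 were higher and 3 lower, or 2 and 5 of 13 after quantile normalization. The shares over all genes were 27.8% and 20.5%, and 29.9% and 12.0%, so that the higher counts were near the background. Without the filter the counts over all 18 were 5 higher and 7 lower, and 4 higher and 3 lower. The endothelial cadherin Cdh5 was higher than in MEFs by 5.44 in prostate (SE 0.52, adjusted p = 4.46e-07 from limma) and by 6.75 in grafts (SE 0.65, adjusted p = 5.88e-06). Cdh18 and Cdh10, cadherins of the nervous system, were lower in prostate than in MEFs by log2 fold changes of -7.24 and -5.66. In prostate against grafts 9 of 14 were lower and none higher, beside 23.0% and 10.3% of all genes tested. After quantile normalization 6 of 13 were lower and 1 higher, and without the filter 10 of 18 were lower. The 2 cadherins with the largest difference were Cdh16 (-8.21, SE 1.09, adjusted p = 8.69e-05) and the intestinal cadherin Cdh17 (-5.34, SE 1.35, adjusted p = 0.00576). Their prostate means were 1.46 and 2.46, so that both passed the filter on low values through the grafts. Cdh17 was at 11.95 in FS003 and 11.33 in FS005 and at 3.64 to 6.33 in the other iEpt+NAF grafts, against 1.58 to 3.53 in prostate.

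The 6 repressors of Cdh1 (Snai1, Snai2, Zeb1, Zeb2, Twist1 and Twist2), transcription factors known from epithelial to mesenchymal transition, were all lower in prostate and in grafts than in MEFs, also after quantile normalization. Their median log2 fold changes were -2.79 and -3.12, and 20.5% and 12.0% of all genes tested were called lower in these comparisons. Snai1 was at 10.20 ± 0.53 (SD, n = 6) in MEFs, 6.37 ± 0.58 (SD, n = 5) in grafts and 5.27 ± 0.38 (SD, n = 6) in prostate. Twist1 was lower in prostate than in MEFs by a log2 fold change of -4.39 (SE 0.10, adjusted p = 5.64e-12 from limma), and Snai2 was lower in grafts than in MEFs by -3.59 (SE 0.34, adjusted p = 5.76e-06). In prostate against grafts 2 of 6 were lower and none higher, beside 23.0% and 10.3% of all genes tested, so the lower share was near the background. After quantile normalization Zeb2 was lower and Snai2 was called higher, with a log2 fold change of 1.19 (adjusted p = 0.0112). Without FS005 Zeb1 was called higher (1.004, adjusted p = 0.0191). Zeb2 had a log2 fold change of -1.18 (SE 0.26, adjusted p = 0.00275) and Snai1 of -1.10 (SE 0.31, adjusted p = 0.0101), but Snai1 was at 0.043 after quantile normalization and both came under the minimum size of 1 when some single samples were left out. Zeb2 without prostate sample FS009 was at -0.9998.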

How the data were processed

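RNA was sequenced by the study on an Illumina instrument after TruSeq library preparation. Per the labels, the submitters' processing notes name bcl2fastq 1.8.4, TopHat, Cufflinks and DESeq, and the mouse build mm9. The authors deposited DESeq-normalized log2 values, 1 per gene and sample, in 2 tables, for 17 samples and for the other 2, with 23284 genes in either. Values of 11.5 to 15 equalled the log2 of whole reads (within 0.05) times a constant of the sample plus 1.611, which gave the depth. Lower values carry added scatter, so that read numbers given for them are estimates. All columns were matched to samples.

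Because whole reads could not be recovered for low values, groups were compared on the deposited values with limma 3.58.1 in R 4.3.3 (lmFit, eBayes with trend), after genes with a mean under 10 on the linear scale had been dropped. To pass, a gene needed an adjusted p (Benjamini-Hochberg) under 0.05 and a change of 1 or more on the log2 scale. For single genes a two-sided permutation test, exact over samples, was added. Whether samples of a group came from separate animals or cultures is not stated for each, so p-values measure the spread between these samples. On simulated data with 200 changed genes, 180, 137 and 156 were recovered for prostate over MEFs, grafts over MEFs and prostate over grafts, with 4, 4 and 3 false calls. The simulated samples were drawn independently, so these counts do not cover the close pairs among the MEF samples. The 8 genes and all gene lists were chosen with earlier results of these data known. Named genes were the 8, the 5 nearest in pattern for 4 of them, and from each list the 2 largest changes in each direction among those that passed (1 of these genes is not reported here); the values of Cdh16 and Cdh17 by graft were chosen after they were seen. Positions are from GENCODE M1 on mm9, and promoter sequences from RefSeq on GRCm38.p6. Alternatives changed the pseudocount (1 or 10), the filter, the scaling, the samples and the minimum fold change. Tables and figures were made in Python 3.11.15 with pandas 2.3.3 and numpy 2.4.6, tests with scipy 1.17.1 and plots with matplotlib 3.10.9.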

Additional observations from a re-analysis of the deposited data

How the results depend on the processing

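Of 1218 recomputed values of single named genes, 1199 kept their direction and side of the threshold, 6 came to pass, 9 no longer passed and 4 changed sign. The changes of sign were Ctnnb1 for grafts over MEFs (0.76), Ctnnd1 for prostate over grafts (-0.21) and Snai1 for prostate over grafts (0.043), all after quantile normalization, and Cdh3 for prostate over grafts without FS008 (-0.027, the range with single samples left out being -0.027 to 0.62); the cause was not tested. With no minimum fold change 11772, 10573 and 9093 genes passed for prostate over MEFs, grafts over MEFs and prostate over grafts, and 3 of the 8 genes passed for prostate over grafts (Cdh2, Cd24a and Ctnnb1). With single samples left out, 1 to 2 of the 8 genes passed for prostate over grafts, Cd24a being added without FS003. With FS019 and FS020 as the only MEF samples, 4 of the 8 genes passed for grafts over MEFs, since Cdh2 (-4.80, adjusted p = 0.0527) and Cdh3 (-2.49, adjusted p = 0.0555) did not, with 2 MEF samples in the fit and 4567 genes passing in place of 6757. In that fit the 16 epithelial surface genes had 13 higher for prostate over MEFs and 13 for grafts over MEFs, the desmosomal genes 8 and 9, the adherens junction partners 5 and 3, and the repressors of Cdh1 had 6 and 5 lower. With MEF pairs averaged, an alternative added after the data were seen, 6 of the 8 passed against MEFs in both comparisons. With 10 added to the linear values, Cdh1 for prostate over MEFs was 8.63 and Epcam 9.01, since the MEF levels are of few reads. Reads of Cdh1 and Epcam in MEFs, and of Cdh2 in prostate, are too few to rank those samples. No paired analysis was possible because replicate numbers were given in accession order and pair no samples.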
